A study of Mus musculus with 6 samples.

Results

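Strip2 encodes a component of the striatin-interacting phosphatase and kinase complex, or STRIPAK. It is described here together with 8 genes named as members of the same complex, which makes 9 of the 55416 genes in the files. Strip2 was selected on its own counts in the comparison of Ift88 mutant with control cells, which are 0 in every control. The other 8 (Strn, Strn3, Strn4, Mob4, Stk24, Stk25, Stk26 and Sike1) were taken for their place in the complex. The values of Strip2 between the groups are therefore given as a description.

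STRIPAK joins a phosphatase and kinases in a single assembly. The striatins are scaffold and regulatory subunits of the phosphatase PP2A, and they bring its scaffold and catalytic subunits together with germinal centre kinases of subgroup III (the GCKIII kinases), the adaptor MOB4 and the STRIP proteins. SLMAP anchors the assembly at membranes and, with SIKE proteins, ties it to the Hippo kinases, which PP2A in this complex can dephosphorylate and so keep inactive. The complex is also known for roles in the cytoskeleton, the Golgi apparatus and cell migration.

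Per the labels, each library came from oligodendrocyte precursor cells, the dividing progenitors of myelin-forming cells, taken from the cortex at postnatal day 11 and pooled over 4 to 6 mice. All mice carried Pdgfra-Cre, which expresses the Cre recombinase from the promoter of the precursor receptor gene Pdgfra, and the RosaEYFP reporter. The 3 control samples were Ift88 fl/wt, with a floxed and a wild-type copy of the cilium assembly gene Ift88, and the 3 cKO samples were Ift88 fl/fl, so controls also carried Cre and a floxed copy. The pools are the replicates, so the tests rest on the variation from pool to pool, and the labels do not say whether these came from separate litters or days.

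Each read is a tag from the 3' end of a messenger RNA, whose number does not depend on transcript length, so levels in CPM, counts scaled to the same total in every library, can be set beside each other between genes. Total counts were 11773548 to 13909236 in 5 libraries and 568509 in cKO replicate 2. From counting error alone, 0 counts allow at most 0.216 to 0.255 CPM in the 5 deeper libraries and at most 5.28 CPM in cKO replicate 2. At least 20 counts were reached by 10695 to 13283 genes in the deeper libraries and by 1520 genes in cKO replicate 2. Of 13 precursor markers, 5 had no count in any library, among them Sox10, and 4 to 5 had at least 20 counts in each control, against 5, 0 and 8 in the cKO libraries. Their summed level was 232 to 480 CPM among controls and 225, 7.04 and 222 CPM in cKO replicates 1 to 3, while 12 neuron markers summed to 2460 to 8010 CPM and to 9010, 2180 and 9320 CPM. Ift88 counts were 143, 32 and 167 among controls and 1, 0 and 305 among cKO libraries. A 3' tag can lie outside the floxed exons, so these counts do not check the genotype.

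The 250 bases before the annotated start are shown for Strip2 and Strn, the 2 members that reached 20 counts in cKO replicate 2. They come from RefSeq on the GRCm38.p6 assembly, where 7 of the 9 members had an entry, and they run 5′ to 3′ on the strand of the gene. Capitals mark the CCAAT box and the half-site TGACG of the cAMP response element, each searched on both strands.
Strip2, chr6:29916763-29917012, plus strand: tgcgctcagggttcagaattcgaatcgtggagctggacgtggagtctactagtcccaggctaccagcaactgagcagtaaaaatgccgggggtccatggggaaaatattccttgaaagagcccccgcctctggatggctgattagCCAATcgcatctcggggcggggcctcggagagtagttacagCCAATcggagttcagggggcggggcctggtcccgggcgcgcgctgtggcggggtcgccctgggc
Strn, chr17:78736562-78736811, minus strand: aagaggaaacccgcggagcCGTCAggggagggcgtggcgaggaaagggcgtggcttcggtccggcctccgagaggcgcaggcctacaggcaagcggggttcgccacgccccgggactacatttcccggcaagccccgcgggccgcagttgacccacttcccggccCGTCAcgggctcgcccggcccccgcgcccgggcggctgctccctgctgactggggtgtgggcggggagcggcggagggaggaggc

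The Strip2 window held 2 CCAAT matches, starting 105 and 64 bases before the start, and no half-site. The Strn window held 2 half-sites, starting 231 and 85 bases before the start, and no CCAAT match. A CCAAT match (or its reverse complement ATTGG) was present in 33.8% of 32851 promoter windows of this length and a half-site (TGACG or CGTCA) in 17.8%. Among the other 5 members with a window, Mob4 and Stk25 held a half-site and Stk25 a CCAAT match. The full cAMP response element TGACGTCA, present in 1.55% of all windows and overlapping the half-site by construction, and the GLI motif GACCACCCA, present in 0.225%, were in none of the 7. The windows of Strip2 and Strn held 18 and 30 CpG dinucleotides, against a median of 6 and an upper quartile of 16 over all windows. Those of Strn3, Mob4, Stk25 and Stk26 held 26, 30, 19 and 14, and that of Strn4 held 0. A match is a description of the letters and does not show binding.

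Strip2 (ENSMUSG00000039629, GRCm39 chromosome 6, 29917011 to 29959680, plus strand) had reads in the cKO libraries alone. It had 0 counts in each of the 3 controls and 169, 433 and 69 counts in cKO replicates 1 to 3. In CPM every control was at 0 and the cKO replicates at 12.2, 762 and 5.86, so the groups did not overlap. The highest level came from the shallow cKO replicate 2, and the other cKO libraries lay far below it. The cKO mean of 260 ± 435 CPM (SD, n = 3) became 9.01 CPM without that library.

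A limit of 3 counts over the pooled controls is 0.075 CPM. The observed Strip2 level was 162-fold this limit in cKO replicate 1, 10100-fold in cKO replicate 2 and 78.1-fold in cKO replicate 3. The limit covers counting error in the controls only. Counting error in the cKO libraries and variation from pool to pool are not covered, so these ratios are not lower bounds. PCR copies of a molecule also count as separate reads. The position of Strip2 within each library differed as well. Its 169 counts exceeded those of 19.7% of the 10695 genes with at least 20 counts in cKO replicate 1, and its 69 counts exceeded 17.5% of 13262 such genes in cKO replicate 3. In cKO replicate 2 its 433 counts exceeded 78.4% of 1520. The median count of such genes was 461, 273 and 268 in cKO replicates 1 to 3, so Strip2 lay below the median in the deep cKO libraries and above it in the shallow one.

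**Figure D1:**
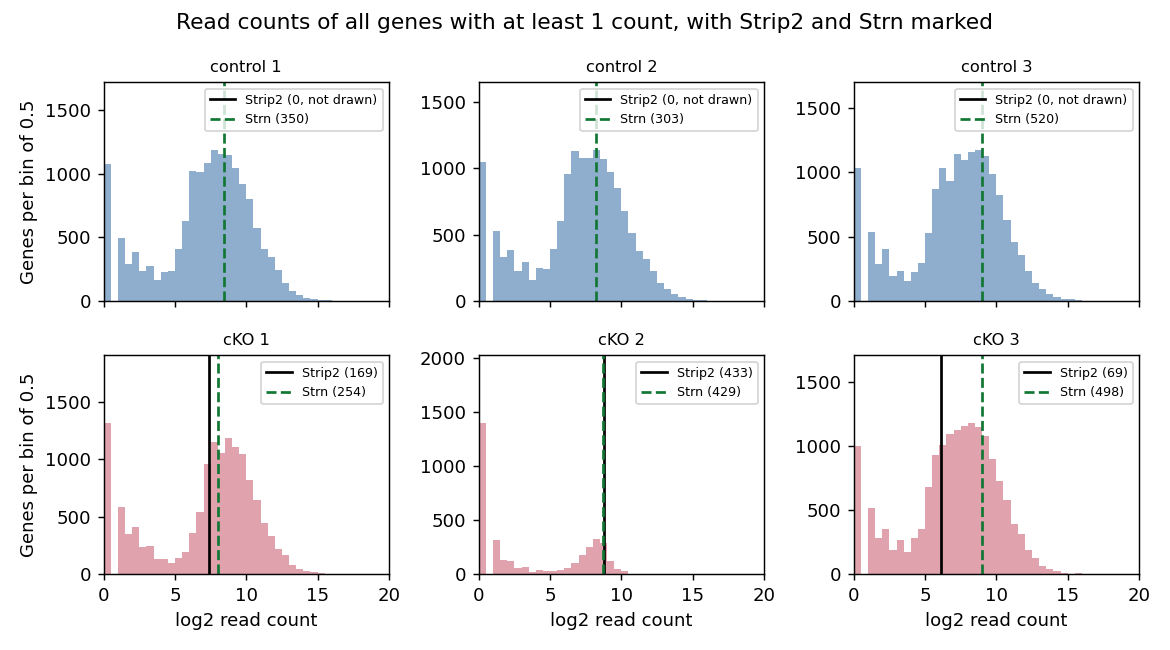
Number of genes (y axis, per bin of 0.5) by log2 read count (x axis) in each of the 6 libraries, for genes with at least 1 count, with Strip2 as a black line and Strn as a dashed green line. Strip2 has no line in the controls, lies to the left of the main peak in cKO 1 and cKO 3 at 169 and 69 counts, and lies beside Strn in cKO 2 at 433 and 429 counts.

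The pattern of Strip2 was rare with all libraries and less rare without cKO replicate 2. Among 12833 genes tested it was the 1 gene with 0 counts in every control and at least 20 in every cKO library (0.00779%). Strip2 was chosen on these counts, so its rarity is a description and no support. Only 1520 genes reached 20 counts in cKO replicate 2, which limits this pattern and not the reverse one. The reverse pattern, at least 20 counts in every control and 0 in every cKO library, was met by 94 genes (0.732%). Without cKO replicate 2, 89 of 14562 genes (0.611%) were at 0 in the controls and at 20 counts or more in the remaining cKO libraries, and 103 (0.707%) showed the reverse.

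Markers of choroid plexus and ependyma were also higher in sum in each cKO library than in any control, and highest in cKO replicate 2. The 10 markers had summed levels of 215, 158 and 123 CPM among controls and of 521, 48400 and 829 CPM in cKO replicates 1 to 3. They were detected with at least 20 counts for 3 to 5 of 10 genes in the controls and for 3, 4 and 7 in the cKO libraries, and Kl and Ccdc153 were at 0 in all 6. The single markers did not all follow the sum. Of the 5 tested, Otx2 and Ttr had every cKO CPM above every control CPM, beside 1.33% of all genes tested. Without cKO replicate 2, 2 markers lay above every control and 1 below, beside 13.0% and 12.6% of all genes tested there. Fitted changes were then above 0 for 3 markers and below 0 for 2, while 47.9% of all genes were above 0. Neuron markers had their lowest cKO sum, 2180 CPM, where Strip2 was highest. The part of choroid plexus RNA, or of the depth of cKO replicate 2, in the counts of Strip2 was not tested. In these pooled samples a change in the number of cells that make a transcript cannot be told apart from a change in RNA per cell.

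Other genes were ranked by the likeness of their level to that of Strip2. Likeness was measured as the mean absolute difference of log2(CPM + 1) from Strip2, in log2 units per library. Over the 6 libraries and 13025 genes the closest were Diaph2 (0.59), Eml6 (0.65), Sipa1 (0.66), Cep68 (0.78) and Cartpt (0.79). Diaph2, a formin that builds actin filaments, counted 27, 0 and 0 reads among controls against 204, 172 and 94 among cKO libraries. Sipa1, which inactivates Rap GTPases, had 0, 19 and 25 control counts and 131, 336 and 97 cKO counts. Cep68, a protein that links centrosomes, had 0, 0 and 85 control counts and 102, 329 and 35 cKO counts. Of these 5 genes, Diaph2 and Sipa1 had every cKO CPM above every control CPM, as 1.33% of all tested genes did. Because the 5 were picked for likeness to Strip2, which has this pattern, the count follows from the ranking and is no enrichment. The last 500 exon bases of Eml6, a microtubule-associated protein, lie fully in exons of Rtn4 on the other strand, so its counts are uncertain.

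Without cKO replicate 2 the 5 closest genes were all different. Over 5 libraries these were Pld1, a phospholipase, Caln1, Shisa6, Trf, the iron carrier transferrin, and Tmem63c, at mean differences of 0.00 to 0.07 log2 units. Pld1 had 0 counts in the controls, 169 in cKO replicate 1 and 68 in cKO replicate 3, which is Strip2's own count to within 1 read in each. The genes were picked for this likeness, so their match in these 5 libraries follows from the ranking. In cKO replicate 2, where Strip2 had 433 counts, these 5 genes had 0. A count of 0 is common there, since 3651 genes had any count in that library against 14047 to 16252 in the deeper ones.

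**Figure D2:**
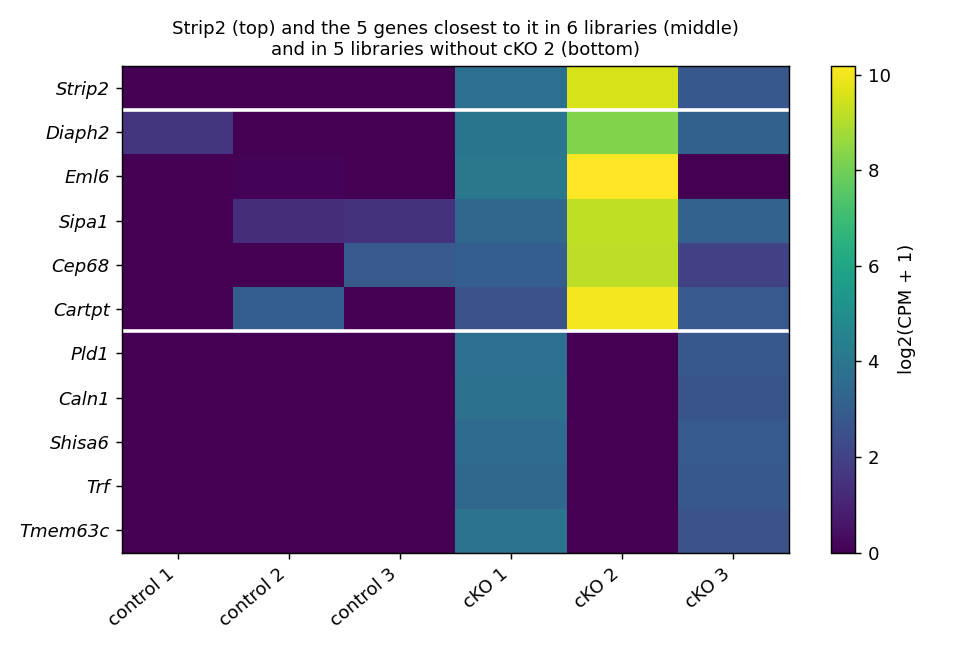
Colour gives log2(CPM + 1) of each gene (rows) in each library (columns): Strip2, then the 5 genes closest to it over 6 libraries, then the 5 closest over 5 libraries without cKO 2. The last 5 rows follow Strip2 in 5 libraries and are at 0 in cKO 2, where Strip2 is at 762 CPM.

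The features beside Strip2 on chromosome 6 that are named here were chosen after values were seen, and none had 0 counts in every control. Closest past its 3′ end, 1.3 kb downstream on the same strand, is the processed pseudogene Gm13724. It had 321, 244 and 79 counts among controls, where Strip2 had 0, and 0, 0 and 60 among cKO libraries. Reads just past the annotated end of a gene can belong to a longer 3′ end of it, and the gene of origin of the Gm13724 reads was not tested. On the other strand 1.4 kb upstream, the unclassified transcript 4930528J11Rik was at 7.62, 6.98 and 4.42 CPM in the controls against 10.8, 0 and 0 CPM in the cKO libraries. The nearest protein-coding genes with at least 20 counts in a library follow. Ahcyl2, 4.7 kb upstream, had control counts of 598, 148 and 598 and cKO counts of 974, 3 and 889. Smo, which encodes the Hedgehog signal transducer Smoothened and lies 155.6 kb upstream, had 923, 1445 and 2129 counts against 1872, 0 and 1748. Nrf1, 88.3 kb downstream, had 418, 600 and 420 against 429, 0 and 548. None of the last 500 exon bases of Strip2 lay in an exon of another gene, and none of the 50-base stretches at the 3′ ends of its transcripts occurred in a transcript of another gene.

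The 8 other members were expressed in both groups. With the edgeR quasi-likelihood test over 12833 genes, 0 of these 8 passed an adjusted p of 0.05 in either direction, and the test called 1 gene higher (0.00779%) and 1 lower (0.00779%) in all. The 1 higher gene was Strip2, with a fitted log2 fold change of 14.40 (SE 2.83), for which it was chosen. At an unadjusted p under 0.05 there were 0 of the 8, against 2.83% of all genes tested. Limma-voom called 0 of the 8, and DESeq2 called 0 of the 7 to which it gave an adjusted p, with none given for Strn. Their median log2 fold change was -0.64, with 2 of 8 above 0, while the median over all tested genes was -0.44 and 33.7% were above 0. Without cKO replicate 2 the test called none of the 9 members, with 0 of 14562 genes higher (0.0%) and 1 lower (0.00687%). At an unadjusted p under 0.05 it then held 0 of the 8, against 6.09% of all genes. Strip2, chosen on its own counts, was under 0.05 unadjusted. The medians were then -0.05 and -0.06, and 3 of 8 were above 0 against 47.9% of all genes.

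**Figure D3:**
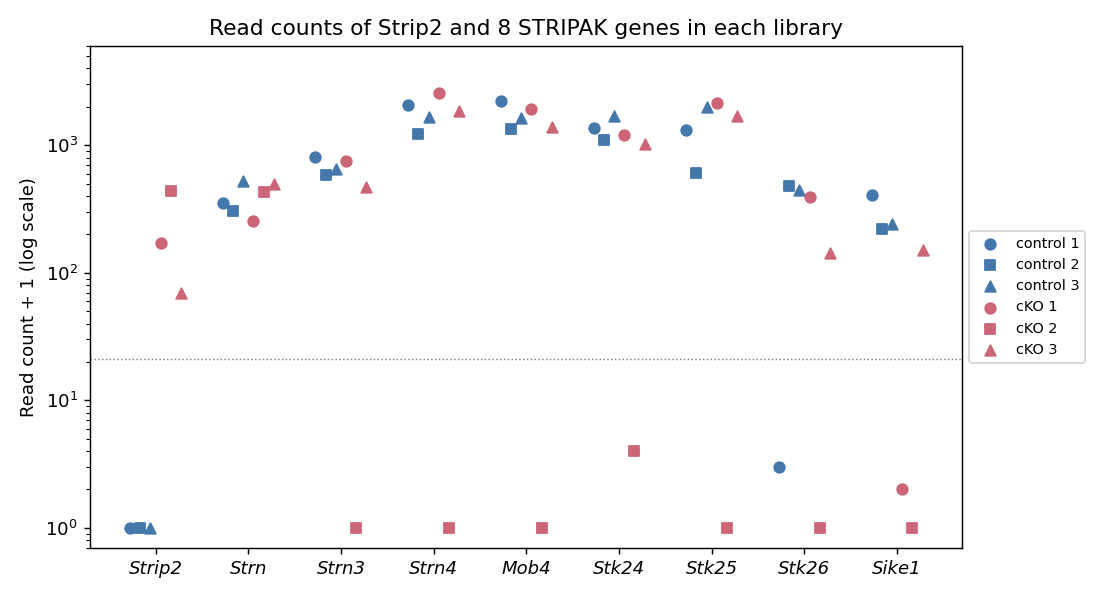
Read count plus 1 on a log axis (y) for each of the 9 genes (x), with blue points for the 3 control libraries and red points for the 3 cKO libraries; the dotted line is at 20 counts. The 3 controls sit at 0 counts for Strip2, and cKO 2 (red squares) sits at 0 to 3 counts for 7 genes and at 433 and 429 for Strip2 and Strn.

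In cKO replicate 2, 2 of the 9 members reached 20 counts. Strip2 had 433 counts and Strn 429, while Stk24 had 3 and the other 6 members had 0. Of the 6 members with at least 20 counts in each deeper library, 1 (Strn) reached 20 there. That is 16.7%, beside 15.9% of the 8241 genes with at least 20 counts in each deeper library. The summed level of the 8 members other than Strip2 was 627, 458 and 651 CPM among controls and 665, 760 and 612 CPM among cKO replicates. The means were 579 ± 105 and 679 ± 74.7 CPM (SD, n = 3). The similar sums hide a different make-up, since Strn alone gave 755 of the 760 CPM in cKO replicate 2.

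The striatins were led by Strn4. Strn (ENSMUSG00000024077, chromosome 17, 78957342 to 79044625), the founding member of the family, had control counts of 350, 303 and 520 and cKO counts of 254, 429 and 498. Its raw counts were thus of the same order in all 6 libraries although cKO replicate 2 was far shallower. In CPM the controls were at 25.6, 23.8 and 38.3 and the cKO libraries at 18.3, 755 and 42.3, and the groups overlapped. The fit gave Strn a log2 fold change of 3.15 (SE 1.67; edgeR adjusted p = 1) and of 0.06 (SE 0.67; edgeR adjusted p = 1) without cKO replicate 2, so that 1 library gave nearly all of the fitted difference.

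Strn3 (ENSMUSG00000020954, chromosome 12, 51656415 to 51738680), a striatin also known as SG2NA, had control counts of 809, 587 and 651 and cKO counts of 753, 0 and 472. The deeper libraries lay close together at 40.1 to 59.3 CPM, and their highest value was 1.48 times the lowest. For Strn3 the fitted log2 fold change was -0.68 (SE 1.72) with all libraries and -0.10 (SE 0.48) without cKO replicate 2, with an edgeR adjusted p of 1 in each.

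Strn4 (ENSMUSG00000030374, chromosome 7, 16549814 to 16574856), also called zinedin, reached 2064, 1218 and 1660 reads among controls and 2587, 0 and 1850 among cKO libraries. The control levels of 151, 95.5 and 122 CPM lay below the 186 and 157 CPM of cKO replicates 1 and 3. These groups did not overlap once cKO replicate 2 was left out, a property of 13.0% of the 14562 genes tested there. Fitted log2 fold changes of Strn4 were -0.09 (SE 1.61; edgeR adjusted p = 1) in all and 0.49 (SE 0.34; edgeR adjusted p = 0.920) without that library. Its direction thus turned with the library and was not settled by the test.

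Within the striatins the make-up was steady across the controls. Strn4 gave 60.2 ± 3.39%, Strn3 25.3 ± 2.43% and Strn 14.5 ± 3.76% of striatin counts (SD, n = 3). In cKO replicates 1 and 3 the share of Strn4 was 72.0% and 65.6%, above its highest control share of 64.0%. That of Strn was 7.07% and 17.7%. Strn3 gave 21.0% and 16.7% there, below its lowest control share of 23.0%, and none of these shares was tested. Such a separation is common with so few libraries. In CPM, 13.0% of all genes tested lay above every control in both of these cKO libraries, and 12.6% lay below. The higher Strn4 and lower Strn3 shares depend on each other and are not separate observations. In cKO replicate 2 all striatin reads were from Strn.

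**Figure D4:**
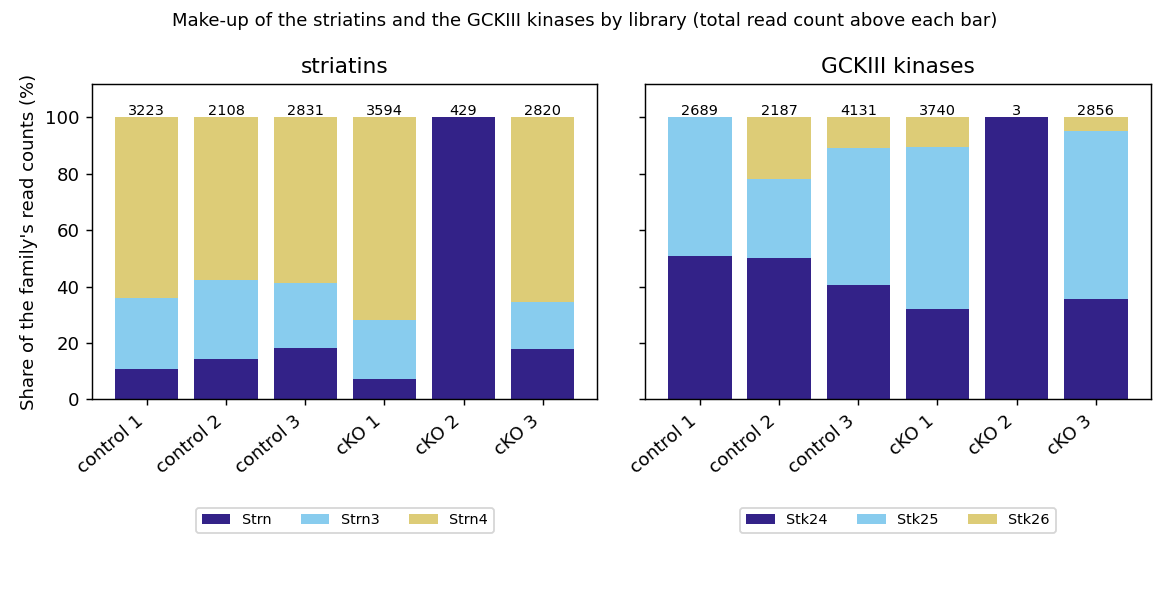
Stacked bars give the percentage of read counts (y) from each striatin (left) and each GCKIII kinase (right) in each library (x), with the total read count of the family above the bar. Strn4 is the largest striatin share in 5 libraries, and the cKO 2 bar is Strn alone on the left and rests on 3 reads of Stk24 on the right.

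Mob4 (ENSMUSG00000025979, chromosome 1, 55170390 to 55194058), the adaptor once named phocein, had control counts of 2237, 1332 and 1636 and cKO counts of 1921, 0 and 1385. The level of cKO replicates 1 and 3, at 138 and 118 CPM, lay inside the control range, which reached 164 CPM. Without cKO replicate 2 the fit put Mob4 at a log2 fold change of -0.01 (SE 0.36), against -0.59 (SE 1.66) with it, at an edgeR adjusted p of 1 in each.

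The GCKIII kinases Stk24, Stk25 and Stk26, which regulate cell polarity, migration and the Golgi apparatus, differed in how evenly they were measured. Stk24 (ENSMUSG00000063410, chromosome 14, 121523755 to 121617423) lies on the chromosome that also carries Ift88 and gave 1362, 1097 and 1680 reads among controls and 1204, 3 and 1014 among cKO libraries. The cKO replicates 1 and 3, at 86.6 and 86.1 CPM, lay at the lower end of the control range of 86.0 to 124 CPM. Stk24 had a fitted log2 fold change of -0.78 (SE 1.75) with all libraries and of -0.24 (SE 0.35) without cKO replicate 2 (edgeR adjusted p = 1 in each).

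Stk25 (ENSMUSG00000026277, chromosome 1, 93547473 to 93586381) had control counts of 1325, 609 and 2007 and cKO counts of 2147, 0 and 1701. Control replicate 2 was lowest among the deeper libraries at 47.7 CPM, and the other controls were at 97.1 and 148 CPM against 154 and 144 CPM in cKO replicates 1 and 3. With all libraries Stk25 had a log2 fold change of 0.06 (SE 1.68; edgeR adjusted p = 1), or of 0.65 (SE 0.47; edgeR adjusted p = 0.943) without cKO replicate 2. Its last 500 exon bases are shared by 19.4% with Farp2 on the other strand, and 6.92% of its 50-base stretches at the 3′ end occur in other transcripts. Its counts are therefore uncertain, and whether shared reads were added or lost was not tested.

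Stk26 (ENSMUSG00000031112, chromosome X, 49929924 to 49981974) varied most of the 8 among the controls, with 2, 481 and 444 counts. The cKO libraries had 389, 0 and 141 counts. A control and a cKO library were thus at or near 0, and the groups overlapped. In the fit Stk26 had a log2 fold change of -0.77 (SE 1.79) in all and of -0.19 (SE 1.59) without cKO replicate 2 (edgeR adjusted p = 1 in each).

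As shares of GCKIII counts, Stk24 and Stk25 gave 47.2 ± 5.63% and 41.9 ± 12.2% in the controls (SD, n = 3). In cKO replicates 1 and 3 Stk24 gave 32.2% and 35.5%, below its lowest control share of 40.7%, and Stk25 gave 57.4% and 59.6%, above its highest of 49.3%. Shares within a family depend on each other, so the lower Stk24 and the higher Stk25 share are not separate observations. Without cKO replicate 2, 13.0% of all genes tested had every cKO CPM above every control CPM, and 12.6% had every one below. The family shares were not tested.

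Sike1 (ENSMUSG00000027854, chromosome 3, 102903024 to 102915775), which encodes a suppressor of the kinase IKK-epsilon and binds SLMAP, had control counts of 408, 221 and 240 and cKO counts of 1, 0 and 149. Every cKO level (0.0719, 0 and 12.7 CPM) was below every control level (29.9, 17.3 and 17.7 CPM), as for 11.1% of all genes tested. Without cKO replicate 2 this still held, as for 12.6% of genes. Its fitted log2 fold change was -2.31 (SE 2.02) and -1.80 (SE 1.74) without that library, and neither passed (edgeR adjusted p = 1 in each). The difference was largest without cKO replicate 3, the 1 cKO library with more than 1 count (log2 fold change -8.12, edgeR adjusted p = 0.400).

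**Figure D5:**
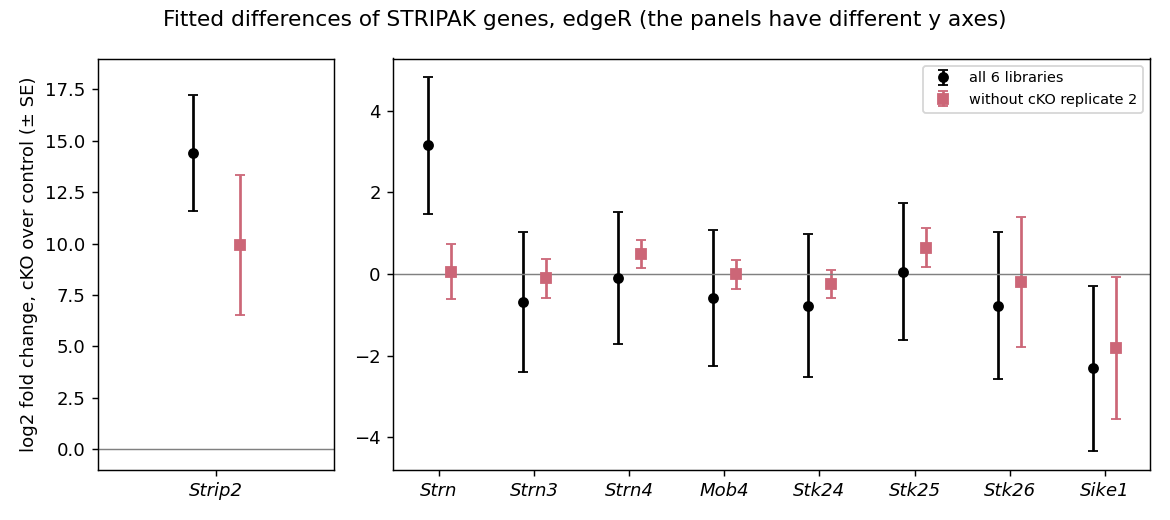
Fitted log2 fold change of cKO over control (y, ± SE) for Strip2 (left panel) and for the other 8 members (right panel), from all 6 libraries in black and without cKO replicate 2 in red. Leaving out that library lowers Strip2 from 14.40 to 9.91 and Strn from 3.15 to 0.06 and shortens the error bars of most other genes.

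Of 10 partners of the complex outside the 9 genes, 0 of 8 tested passed in either direction by edgeR or limma-voom and 0 of 7 with an adjusted p by DESeq2, and 0 had an unadjusted p under 0.05 with all libraries. Of all genes tested, 2.83% had an unadjusted edgeR p under 0.05. The partners had a median log2 fold change of 0.15, with 5 of 8 above 0. The median over all tested genes was -0.44, and 33.7% were above 0. Without cKO replicate 2 the partner median was 0.08, with 6 of 9 above 0, against -0.06 and 47.9% over all genes.

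The PP2A core was measured in all 6 libraries. The scaffold gene Ppp2r1a counted 12174, 12916 and 13298 reads among controls and 12727, 775 and 12994 among cKO libraries, a mean of 961 ± 62.5 against 1130 ± 225 CPM (SD, n = 3). The catalytic subunit genes Ppp2ca and Ppp2cb averaged 700 ± 91.7 and 336 ± 61.6 CPM among controls, against 534 ± 304 and 373 ± 116 CPM among cKO libraries (SD, n = 3). Without cKO replicate 2 the cKO means were 710 and 307 CPM, so the direction of each turned with that library. The second scaffold gene Ppp2r1b had 92.1 ± 12.4 against 174 ± 89.7 CPM, and cKO replicates 1 and 3 alone averaged 123 CPM, while its last 500 exon bases lie fully in exons of Sik2 on the other strand. The 4 genes together reached 2090 ± 73.0 CPM among controls and 2210 ± 121 CPM among cKO libraries (SD, n = 3), including 2330 CPM in cKO replicate 2. In that library 4 of these 4 genes reached 20 counts, while 37.3% of genes with a mean of at least 100 CPM and at least 20 counts in each deeper library did so. That share is not matched for level, and Ppp2r1a, Ppp2ca and Ppp2cb lay far above 100 CPM in the controls. The comparison therefore shows no property of the PP2A core.

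The remaining partners were at lower levels. Slmap, the membrane anchor that recruits the Hippo kinases, had control counts of 356, 71 and 812 and cKO counts of 889, 1 and 415. Pdcd10, a partner of the GCKIII kinases mutated in cerebral cavernous malformation, had 302, 280 and 146 against 0, 0 and 183 counts. Fgfr1op2, a relative of Sike1, had 176, 388 and 145 against 202, 1 and 139 counts, and Cttnbp2nl, which binds cortactin and striatins, 353, 165 and 312 against 663, 0 and 310. Cttnbp2 had 51 and 53 counts in control and cKO replicate 1 and 0 elsewhere, and Traf3ip3 had 0 in all 6 libraries.

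Most of the 13 listed genes of other PP2A regulators encode subunits that compete with striatins for the same core. Of the 12 tested, 0 passed the edgeR test in either direction. Their median log2 fold change was -0.34 with all libraries and turned to 0.12, with 7 of 12 above 0, without cKO replicate 2, beside -0.44 and -0.06 over all tested genes. Without that library 47.9% of all tested genes were above 0. In cKO replicate 2 the sum of all 13 was 2630 CPM, against 1180 to 1340 CPM among controls and 1480 and 1550 CPM in cKO replicates 1 and 3. Ppp2r5d and Ppp2r5e had 457 and 352 counts there, or 804 and 619 CPM, against 30.2 to 121 and 82.4 to 124 CPM in the controls. Levels in cKO replicate 2 raised the mean by which these genes were named. In cKO replicates 1 and 3 their means were 105 and 123 CPM. The last 500 exon bases of Ppp2r5d are shared by 24.2% with Mea1 on the other strand, so its counts are uncertain. Ppp2r2b, a subunit abundant in neurons, had control levels of 361, 271 and 106 CPM and cKO levels of 396, 580 and 401 CPM, without overlap, as for 1.33% of all genes tested.

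The Hippo pathway, which STRIPAK restrains, also gave no call by edgeR, DESeq2 or limma-voom. Of its kinases, adaptors and transcription factors 0 of 21 tested passed, and of YAP and TEAD target genes 0 of 11. For the first list the median log2 fold change turned from -0.19 with all libraries to 0.17 without cKO replicate 2, with 14 of 21 then above 0. For the targets it was -0.77 and then -0.72. The medians over all tested genes were -0.44 and -0.06, and 47.9% of genes were above 0 without cKO replicate 2. Map4k4, a kinase that acts on the Hippo kinases and associates with STRIPAK, had control levels of 119, 48.8 and 97.7 CPM and cKO levels of 133, 179 and 174 CPM. It was the 1 gene of the 21 tested whose cKO levels all lay above the controls, as 1.33% of all tested genes did. Wwtr1, which encodes the coactivator TAZ, had control counts of 1644, 861 and 3519 and cKO counts of 1099, 1 and 1047. The adaptor gene Wwc1 had 289, 127 and 630 against 0, 172 and 455 counts. Among targets, Ccn1 had 813, 4163 and 7853 against 1232, 1 and 1127 counts and Ccn2 225, 1243 and 4000 against 2245, 0 and 1094. Both secreted matrix proteins thus spread widely over the controls. Crim1 had control levels of 30.0, 16.5 and 47.5 CPM and cKO levels of 48.9, 457 and 48.3 CPM. It was the 1 target of 11 with every cKO level above every control, beside 1.33% of all genes, but cKO replicates 1 and 3 lay close to the highest control. The 457 CPM of cKO replicate 2 raised the mean level by which Crim1 was named.

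Partners of the GCKIII kinases and of their Golgi and membrane functions had 0 of 14 tested genes past the edgeR test. Their median log2 fold change was -0.47, with 2 of 14 above 0, and -0.11, with 7 of 14 above 0, without cKO replicate 2, beside -0.44 and -0.06 over all tested genes. Of all tested genes, 33.7% were above 0 with all libraries and 47.9% without cKO replicate 2. The ERM proteins ezrin, radixin and moesin link actin to the membrane and ezrin is a substrate of the kinase encoded by Stk26. Rdx had control levels of 203 ± 12.1 CPM (SD, n = 3) and cKO levels of 183, 1.76 and 278 CPM. Msn had 392, 476 and 1080 CPM against 308, 412 and 664 CPM, and Ezr 124, 65.5 and 291 CPM against 78.1, 155 and 123 CPM, with overlap of the groups in each.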

How the data were processed

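The authors deposited raw read counts per gene for 6 libraries, made with featureCounts 2.0.0 from exons of Ensembl release 104 on GRCm39, per the file headers. The command sets no strand and no multi-mapping option, so antisense partners cannot be told apart. QuantSeq 3' libraries are named in the labels' protocols; STAR appears among the tools, per the submitters' processing notes. Counts were scaled to CPM by the library total. Genes kept by filterByExpr (12833) were scaled by TMM and tested with glmQLFit (robust) and glmQLFTest in edgeR 4.0.16 under R 4.3.3, with no covariate and Benjamini-Hochberg adjustment over all genes (0.05). The SE was the log2 fold change over the square root of F. Alternatives used DESeq2 1.42.0, limma-voom 3.58.1, other scalings and filters, a replicate block and leaving out each library. The fit was first tested on simulated data. Symbols came from a table that matched 52083 of 55416 identifiers. Shared 50-base stretches were searched in GENCODE M21 transcripts over the last 500 bases. Named were the 9 members, 10 partners, the 3 genes of highest mean CPM of each other list and the 5 genes closest to Strip2; a gene that this rule selects is not reported here. The members and lists were chosen with earlier results of these data known.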

Additional observations from a re-analysis of the deposited data

How the results depend on the processing

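Strip2 was higher in cKO libraries under all alternatives run (log2 fold change 9.32 to 19.61), but the call depended on them. It passed with RLE scaling, no filter, 5 CPM in 3 libraries, and without cKO replicate 1 or 3. It did not pass when cKO replicate 2 or control replicate 1, 2 or 3 was left out (adjusted p by edgeR 0.767, 1, 0.652 and 0.646), nor with upper-quartile scaling (0.550), the replicate block (0.999) or limma-voom (0.891). DESeq2 gave no adjusted p for Strip2 or Strn, so the 9 members were not counted together there. Members past the threshold numbered 0 with upper-quartile scaling, the replicate block and limma-voom, and 0 to 1 with a library left out. Over all genes, 14 were higher and 2 lower with RLE scaling, 0 and 0 with upper-quartile scaling, 7 and 52 with DESeq2 and 6 and 2 with limma-voom. Higher genes numbered 22 without a filter, 2 at 5 CPM, 0 with the replicate block and 0 to 6 with a library left out. The median log2 fold change of all genes moved from -0.44 to -0.28 with RLE and -0.01 with upper-quartile scaling. Strn4, Stk25 and Stk26 turned sign without passing. Strn4 was at 0.00 with RLE and DESeq2, 0.16 with upper-quartile scaling and -0.66 to 0.49 with a library left out. Stk25 was at -1.11 with the replicate block, -1.02 with limma-voom and -0.44 to 0.65 with a library left out. Stk26 was at 1.0 with limma-voom. Same-numbered libraries correlated by 0.079, 0.051 and 0.011 in their deviations from the group means, so the numbers were not taken as pairs. The causes of these differences were not tested. In cKO replicate 2, 0 counts allow up to 5.28 CPM from counting error alone, yet 37.3% of genes with a mean of at least 100 CPM, and at least 20 counts in each deeper library, reached 20 counts there.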
